A study of Glycine max with 9 samples.

Results

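The table of expressed genes in developing soybean seeds gives each gene a genomic span, and some spans are given to more than 1 gene. The genes described here were chosen by that rule alone: a gene belongs to the set when its chromosome, start and end are identical to those of at least 1 other gene of the table. The rule took 1895 of 33779 genes (5.61%) in 878 of 32762 spans, and it used no expression value itself. The table, however, holds only genes that passed the authors' expression filter, so a partner that failed it is not seen. Transcripts were assembled by Cufflinks and Cuffmerge from the reads of all lines, and each assembled gene carries an XLOC identifier. Because a span is shared, the table does not give the ends, strand or exons of the separate genes within it. Spans are stated on the Williams 82 genome of the Gmax_189 annotation, as deposited.

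RNA was sequenced from whole seeds at the S6 stage of maturation, from plants grown in chambers, with 1 library for each of 9 soybean lines. The lines differ in seed oil: FAM94-41 (labelled FAM94) is high in stearic acid, M23 has a middle level of oleic acid, and N0304-303-3 combines low palmitic, middle oleic and low linolenic acid. R02-6268F, R05-4256, R05-591 and R08-1450 are high oil lines, R95-1705 is a high protein line (the study describes it and N0304-303-3 as low in oil), and Jack has an oil like that of commodity soybean. No line was treated and no line had a replicate, so a value of 1 line cannot be separated from a value of its seed sample or library, and no test between lines was made. The table holds the mean FPKM of each gene over the 9 lines (fragments per kilobase of transcript, scaled to the number of mapped reads, a level per length computed by the authors) and 1 Z-score per line. A Z-score is the distance of the log2-transformed FPKM of that line from the mean of the 9 lines, in standard deviations of that gene. An absolute Z-score of at least 2 is the study's cutoff for a changed gene, and a gene past it is called increased or reduced below. FPKM of single lines and read counts are not in the table, so the depth behind a value is unknown from it and no counting error can be given.

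Genes overlap in plant genomes in several ways. A gene may lie on the opposite strand of another gene, may start inside its intron, or may be an antisense RNA that pairs with its message. An assembler also makes separate genes from fragments of 1 transcription unit when reads do not join them. The library kit used here does not mark the strand of the RNA, so reads of a gene and of an antisense partner cannot be told apart where their exons overlap. How far reads of 1 gene entered the FPKM of its partner was not tested.

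Most of the shared spans held a pair of genes. There were 765 spans with 2 genes, 91 with 3, 19 with 4, 2 with 5 and 1 with 6, which gave 1187 pairs of genes within a span. Shared spans had a median length of 6935.5 bp (524 to 67972 bp), against 4006.5 bp for the 31884 spans with a single gene. They lay on all 20 chromosomes, from 26 spans on chromosome 1 (1.88% of its spans) to 65 on chromosome 8, with the highest share on chromosome 15 (3.54%), against 2.68% over the whole table. Only 2 shared spans, with 4 genes, lay on unplaced scaffolds.

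The identifiers gave a further description of the pairs. On each of the 20 chromosomes the XLOC numbers ran along the sequence in 3 ascending series, with 16783, 16338 and 578 genes in the first, the second and the third. The third series held short spans (median 640.5 bp) of low level (median of the mean 1.16 FPKM). Of the 1187 pairs, 915 joined a gene of the first with a gene of the second series, 203 joined genes of the same series among these, 37 had 1 gene and 30 had both genes in the third series, and 2 lay on scaffolds. Whether the series stand for the strands was not tested, and the division was made after the table had been seen.

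Genes in shared spans were of lower level than genes alone in theirs. Their median mean was 2.28 FPKM (quartiles 0.946 and 5.79), against 3.62 FPKM for genes of single-gene spans, and 273 of them (14.4%) had a mean of at least 10 FPKM, against 22.1%. The range was wide, from 0.0592 to 10455 FPKM, and 9 genes exceeded 1000 FPKM. All genes in shared spans together held 7.60% of the summed mean FPKM of the table, and the 3 most abundant of them made up 49.6% of that part. Of the 100 most abundant genes of the table, 11 lay in shared spans, 10 spans in all.

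The abundant shared spans carried well-known seed products. Soybean seeds store protein in vacuoles and also accumulate lectins, which bind sugars, and protease inhibitors of the Kunitz and Bowman-Birk families, which block trypsin-like enzymes. The most abundant gene in a shared span was XLOC_022306, the gene model Glyma08g45531 for Kunitz trypsin inhibitor 1, at 10455 FPKM on chromosome 8 (44882983 to 44884058). Its partner XLOC_020593, which carries no gene model here, had a mean of 586 FPKM, so the ratio of the means was 17.8. In this span the Z-scores of the inhibitor gene were 1.09 in Jack, -0.45 in FAM94-41, 1.09 in M23, -0.74 in N0304-303-3, 0.00 in R02-6268F, 0.59 in R05-4256, 1.04 in R05-591, -1.20 in R08-1450 and -1.41 in R95-1705. Those of the partner, in the same order of lines, were 1.06, -0.81, 0.99, -0.38, -0.33, 0.75, 1.17, -1.29 and -1.18. Both genes were highest in Jack, M23 and R05-591 and lowest in R08-1450 and R95-1705, and the Pearson correlation over the 9 lines was 0.97 (0.96 without R08-1450, the lowest value when any line was left out).

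The lectin span was followed by both of its genes almost without difference. XLOC_003922 (3969 FPKM) and XLOC_002443 (2012 FPKM) share 1535 bp on chromosome 2 (1124342 to 1125876), and the study's lists give both the same gene model, Glyma02g01590, the seed lectin Le1. The ratio of their means was 1.97. In the same order of lines, from Jack to R95-1705, the Z-scores of XLOC_003922 were 1.21, 0.00, 0.44, -0.17, 0.32, 0.04, 1.22, -1.56 and -1.51, and those of XLOC_002443 were 1.21, 0.04, 0.49, -0.17, 0.24, 0.09, 1.19, -1.58 and -1.51. Lectin transcripts were thus highest in Jack and R05-591 and lowest in R08-1450 and R95-1705 in both genes, with r = 0.999. Neither gene passed the cutoff in any line.

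A Bowman-Birk inhibitor span passed the cutoff with both genes in the same line. XLOC_024303, the gene model Glyma09g12252 annotated as a Bowman-Birk type proteinase isoinhibitor (855 FPKM), shares chromosome 9, 12860540 to 12862019, with XLOC_022932 (302 FPKM, ratio 2.84). From Jack to R95-1705 the Z-scores of XLOC_024303 were 0.46, -0.39, 0.14, 0.89, 0.12, 0.54, 0.59, -2.48 and 0.13, and those of XLOC_022932 were 0.55, -0.40, 0.15, 0.98, -0.36, 0.59, 0.68, -2.37 and 0.18. R08-1450 stood far below the other 8 lines in both genes, and the correlation of 0.98 remained 0.93 when R08-1450 was left out.

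Leginsulin, a small cysteine-rich seed peptide of the albumin-1 type, shared its span with a gene of the same identifier series. XLOC_034056 (Glyma13g26340, 7042 FPKM) and XLOC_034057 (472 FPKM, ratio 14.9) lie on chromosome 13 at 29542356 to 29550215. The Z-scores of the leginsulin gene from Jack to R95-1705 were -0.08, 1.21, -0.72, 0.87, 1.23, -1.64, -1.02, 0.12 and 0.04, and those of the partner were -1.62, 1.16, -0.28, 0.95, 1.16, -1.03, -0.58, -0.25 and 0.49. FAM94-41, N0304-303-3 and R02-6268F were high in both genes, whereas Jack was near the mean of the leginsulin gene and the lowest line of its partner (r = 0.78).

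**Figure D1:**
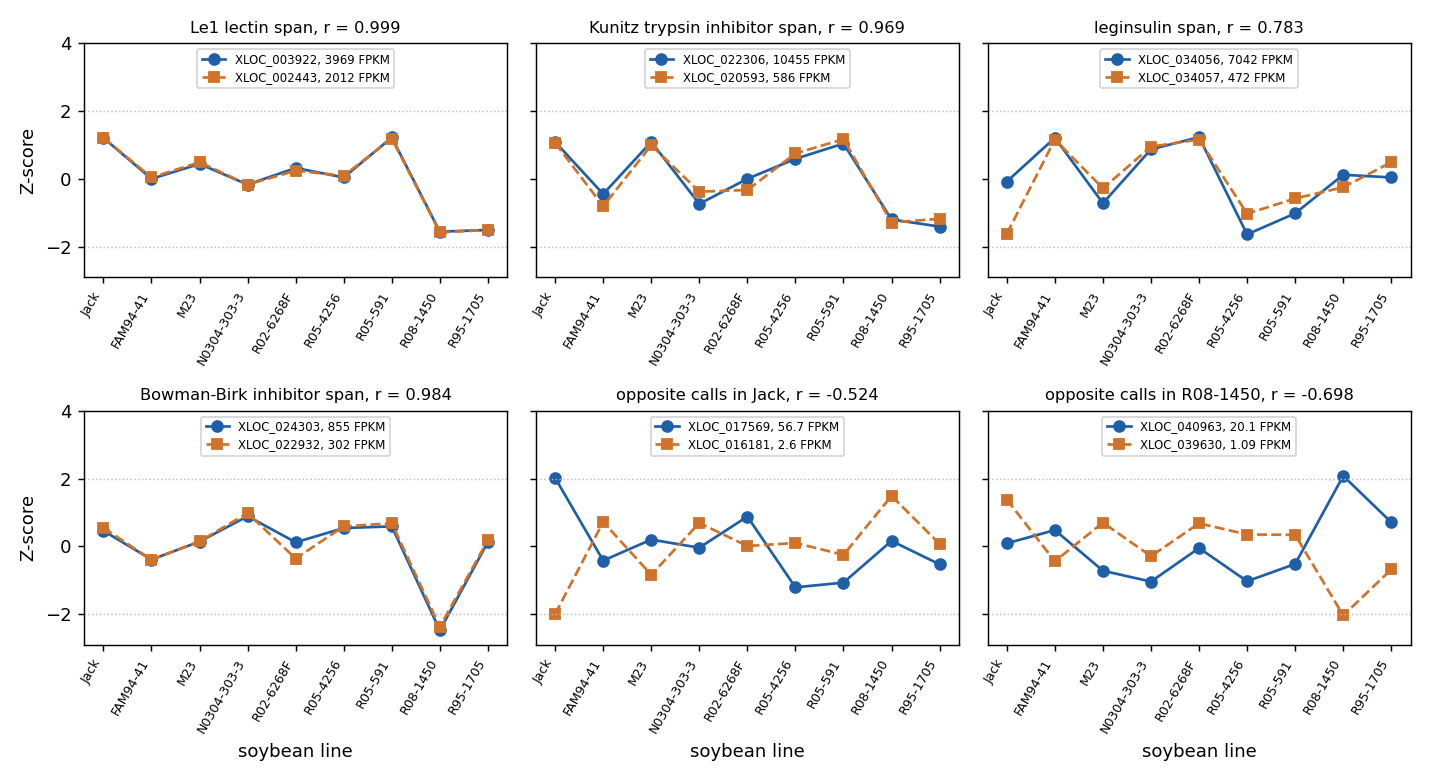
Z-scores (vertical axis, no unit) of both genes of 6 shared spans in the 9 soybean lines, with 1 library each; lines join the points of 1 gene for reading only, and dotted lines mark Z-scores of 2 and -2. The pairs of the Le1, Kunitz and Bowman-Birk spans move together (r of 0.999, 0.97 and 0.98), while the pairs called in opposite directions in Jack and in R08-1450 part in that line (r of -0.52 and -0.70).

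Other abundant genes had a partner at a small fraction of their level. The seed maturation protein gene PM28 (XLOC_019724, Glyma08g18400, 1665 FPKM) shared its span on chromosome 8 (13810807 to 13816198) with XLOC_021555 at 26.9 FPKM, a ratio of 61.8, and the pair still correlated at 0.92. XLOC_021555 was past the cutoff in R08-1450 (Z of 2.06), where PM28 had 1.52, and both genes were lowest in R05-591 (-1.98 for PM28 and -1.37 for the partner).

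The largest ratios came with weaker or negative correlations. Glyma10g35871, an uncharacterized protein gene (XLOC_026331, 10213 FPKM), shares chromosome 10, 44064735 to 44077667, with XLOC_027755 (9.36 FPKM) and XLOC_027754 (0.739 FPKM), and the ratio of 13817 within this span was the highest of all pairs. The abundant gene was called increased in Jack (Z of 2.23), where XLOC_027755 had 0.45 and XLOC_027754 -0.33. XLOC_027754 had an equal lowest Z-score in 8 lines and a Z of 2.67 in N0304-303-3, so its mean corresponds to 6.65 FPKM in that line alone. Glyma09g04950 for the translationally controlled tumor protein, a protein of growing cells (XLOC_022694, 1364 FPKM), had a partner at 0.340 FPKM (XLOC_024060, ratio 4010). It was called increased in Jack (2.16), the line in which the partner was lowest (-1.60), and r was -0.62. Glyma11g36840, of unknown function (1134 FPKM), had a partner XLOC_029471 at 0.959 FPKM (ratio 1183, r = 0.32). Glyma06g02160, annotated as related to a transcription activator (1131 FPKM), had XLOC_014663 at 1.15 FPKM (ratio 987, r = 0.49) and was called reduced in R05-591 (-2.10). The ribosomal protein S14p/S29e gene Glyma10g40461 (983 FPKM) had XLOC_026558 at 3.03 FPKM (ratio 324, r = 0.21) and was called increased in Jack (2.09).

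To ask whether genes of a shared span vary together more than genes that merely lie side by side, the 1187 pairs were set beside 30948 pairs of consecutive single-gene spans that do not overlap. Genes of a shared span had a median correlation of 0.204 (quartiles -0.19 and 0.53), against 0.0453 (-0.31 and 0.39) for neighbours. Of the pairs in a span, 769 (64.8%) had a positive r, against 53.2% of neighbours. An r above 0.9 was found in 59 pairs (4.97%), against 0.995% of neighbours, and an r below -0.5 in 9.60%, against 13.4%. Each r rests on the same 9 libraries, and pairs of a span with 3 or more genes share genes, so these are descriptions and no p-value is attached. The median was higher in shared spans on 20 of 20 chromosomes, ranging from 0.0956 on chromosome 12 to 0.471 on chromosome 20, while that of neighbours ranged from 0.0112 to 0.0808.

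Genes adjoining the shared spans were near neighbours elsewhere when pairs of all levels were taken. The 3699 pairs of a gene in a shared span with the adjoining single-gene span had a median r of 0.0498. Among neighbours, the closest spans stood nearest to the shared ones. The 1342 neighbouring pairs less than 500 bp apart had a median r of 0.113, against 0.0246 beyond 20000 bp, and 3.87% of them exceeded 0.9, close to the 4.97% of pairs in a span. The 64 of these close pairs with both means of at least 10 FPKM had a median r of 0.172.

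Correlation within spans depended on the level of the pair. Where the lower mean of the pair was under 1 FPKM, the median r was 0.166 in 550 pairs, and between 1 and 5 FPKM it was 0.202 in 544 pairs. It was 0.514 in the 53 pairs between 5 and 10 FPKM and 0.871 in the 40 pairs with both means of at least 10 FPKM. The same 4 classes of neighbours had medians of 0.0381, 0.0367, 0.0612 and 0.176. Thus genes of a shared span exceeded neighbours in each class, and by the widest margin where both genes were well expressed.

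**Figure D2:**
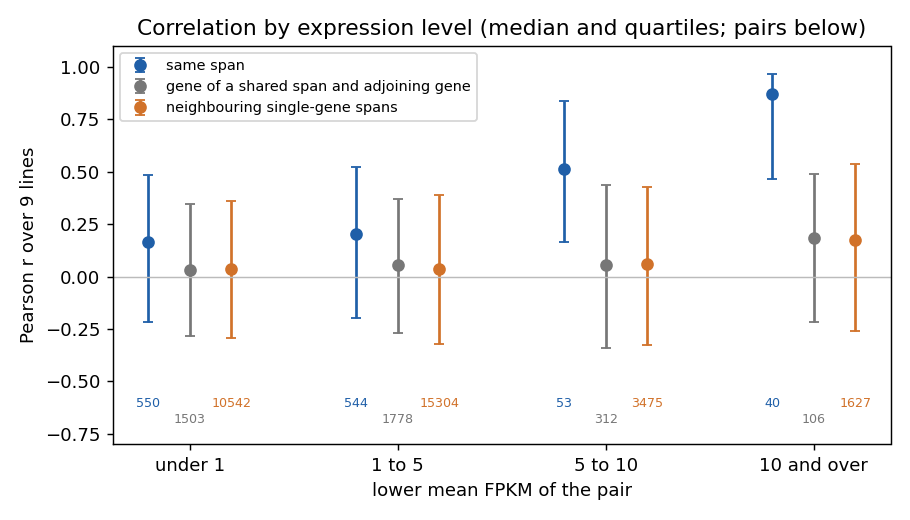
Median Pearson r over 9 lines (points) with quartiles (bars) by the lower mean FPKM of the pair, for genes of 1 span, for a gene of a shared span with the adjoining gene, and for neighbouring single-gene spans; the numbers of pairs stand at the foot. Pairs in a span rise from 0.166 to 0.871, while neighbours stay between 0.0367 and 0.176.

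The 40 well-expressed pairs came from 34 spans. In 33 of them r was positive, in 18 it exceeded 0.9 and in 0 it was below -0.5, with quartiles of 0.463 and 0.965. Among 1627 neighbouring pairs of the same level, 33 exceeded 0.9 and 201 fell below -0.5. The lowest r that any 8 of the 9 lines gave had a median of 0.777 in these spans and of -0.11 in neighbours, and 13 of the 40 pairs stayed above 0.9. Where the gene of these spans was paired with its adjoining gene instead, the median r was 0.226 over 142 pairs, and 0.481 over the 23 in which the adjoining gene also reached 10 FPKM. The high correlation was thus less marked in the immediate surroundings than in the span, although adjoining genes of these spans also stood above neighbours in general.

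**Figure D3:**
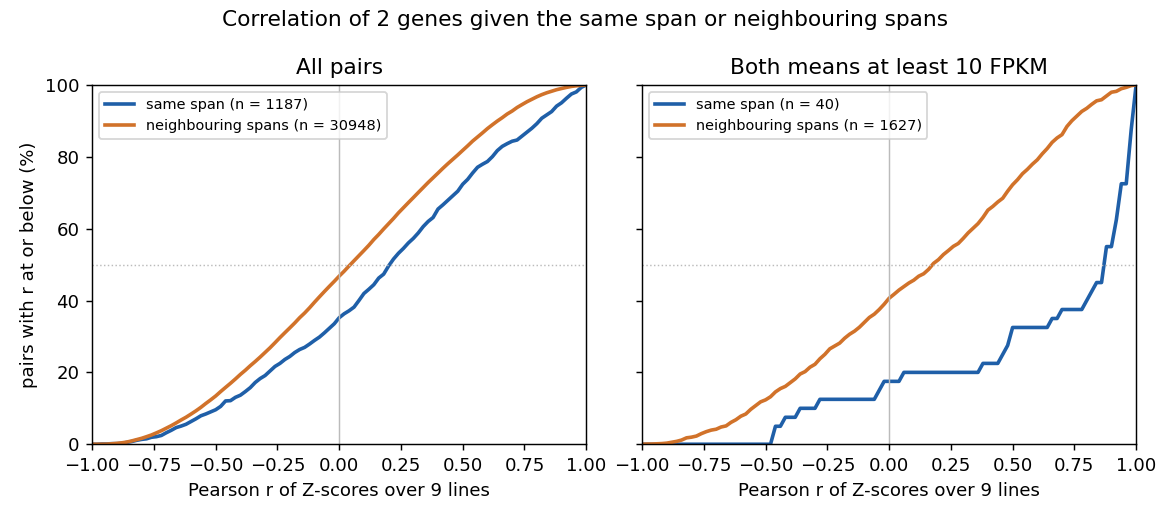
Share of pairs (vertical axis, percent) with a Pearson r over 9 lines at or below the value on the horizontal axis, for all pairs (left) and for pairs with both means of at least 10 FPKM (right). The curve of pairs in 1 span lies to the right of that of neighbours in both panels, with medians of 0.204 against 0.0453 and of 0.871 against 0.176.

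Beside the lectin, the highest correlations of this level belonged to spans without a gene model in the lists used. On chromosome 20 (39107702 to 39120746), XLOC_054124 (502 FPKM) and XLOC_052971 (283 FPKM) were high in FAM94-41, M23 and R02-6268F (Z-scores from 1.05 to 1.26) and lowest in R95-1705 (-1.79 and -1.63), with r = 0.99. On chromosome 2 (10629768 to 10634245), XLOC_004396 (277 FPKM) and XLOC_002913 (37.2 FPKM) were low in M23 (-1.88 and -1.74) and R02-6268F (-1.40 and -1.62), again with r = 0.99. On chromosome 13 (22884534 to 22887383), XLOC_035585 (253 FPKM) and XLOC_033731 (58.5 FPKM) were highest in Jack (1.65 and 1.84) and lowest in R08-1450 (-1.86 and -1.92), with r = 0.99. Each of these spans joined the first and the second identifier series, and the pattern over the lines differed from span to span.

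A negative r was found in 7 of the 40 well-expressed pairs, against 661 of 1627 neighbouring pairs of this level. In none of the 7 was r below -0.5. On chromosome 7 (1656756 to 1663676), XLOC_017640 (27.3 FPKM) was highest in R05-4256 (1.83) and lowest in FAM94-41 and R95-1705 (both -1.18), whereas XLOC_016270 (19.7 FPKM) was highest in R08-1450 (1.71) and R95-1705 (1.19), and r was -0.47. On chromosome 8 (17972784 to 17979687), XLOC_019979 (15.5 FPKM) was highest in R05-4256 (1.77) and R05-591 (1.16), and XLOC_021756 (12.3 FPKM) in R08-1450 (1.5) and R95-1705 (1.46), with r = -0.44. Glyma01g37910, of the RCC1 family of chromatin condensation regulators (XLOC_000838, 32.7 FPKM), was called reduced in R05-591 (-2.04), where XLOC_002008 of its span (chromosome 1, 50155332 to 50163097, 10.3 FPKM) had 0.32, and r was -0.36.

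A span with 3 genes on chromosome 13 (21526104 to 21533385) held both kinds of pair. XLOC_033651 (37.9 FPKM) and XLOC_035528 (22.3 FPKM), of different series, correlated at 0.90 and were highest in R08-1450 (1.54 and 1.52) and lowest in R05-591 (-1.51 and -1.46). XLOC_033650 (13.4 FPKM) was highest in R95-1705 (1.37) and lowest in N0304-303-3 (-1.64), and correlated at -0.47 with the first and at -0.30 with the second of these genes.

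The ratio of the means was somewhat lower than that of neighbours, though not at every level. The higher mean exceeded the lower by a median of 2.99-fold in shared spans (quartiles 1.63 and 7.07) and 3.65-fold in neighbours (1.82 and 9.58), and the median was lower in shared spans on 16 of 20 chromosomes. Neighbours less than 500 bp apart had 3.01, and spans of 2 genes only had 3.49, against 3.51 for neighbours within 5 kb, so the lower ratio was not found in every comparison. Where the lower mean of the pair was under 1 FPKM, the median ratio was 4.78 in shared spans and 8.23 in neighbours. It was 2.41 against 3.04 from 1 to 5 FPKM and 1.63 against 2.05 from 5 to 10 FPKM. Among pairs with both means of at least 10 FPKM the order turned, with 1.98 in shared spans and 1.87 in neighbours. The 3 well-expressed pairs closest in level had ratios of 1.04 (XLOC_028185 and XLOC_028184, chromosome 10), 1.09 (XLOC_041020 and XLOC_039716, chromosome 15) and 1.16 (XLOC_010140 and XLOC_008935, chromosome 4). The pair of ratio 1.16 holds Glyma04g36200, of the UDP-glycosyltransferase family, which attaches sugars to small molecules (15.9 and 13.7 FPKM, r = 0.87). Glyma04g36200 was called increased in R08-1450 (2.08), where its partner had 1.75.

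Genes closer in level were also closer in pattern. The median r was 0.323 in 391 pairs with a ratio under 2, 0.155 in 301 pairs from 2 to 4, 0.150 in 280 pairs from 4 to 10 and 0.117 in 215 pairs of at least 10. In neighbours the same 4 classes had 0.0881, 0.0723, 0.0217 and 0.00228. Level and ratio are not separate here, since pairs of large ratio have a low lower mean.

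**Figure D4:**
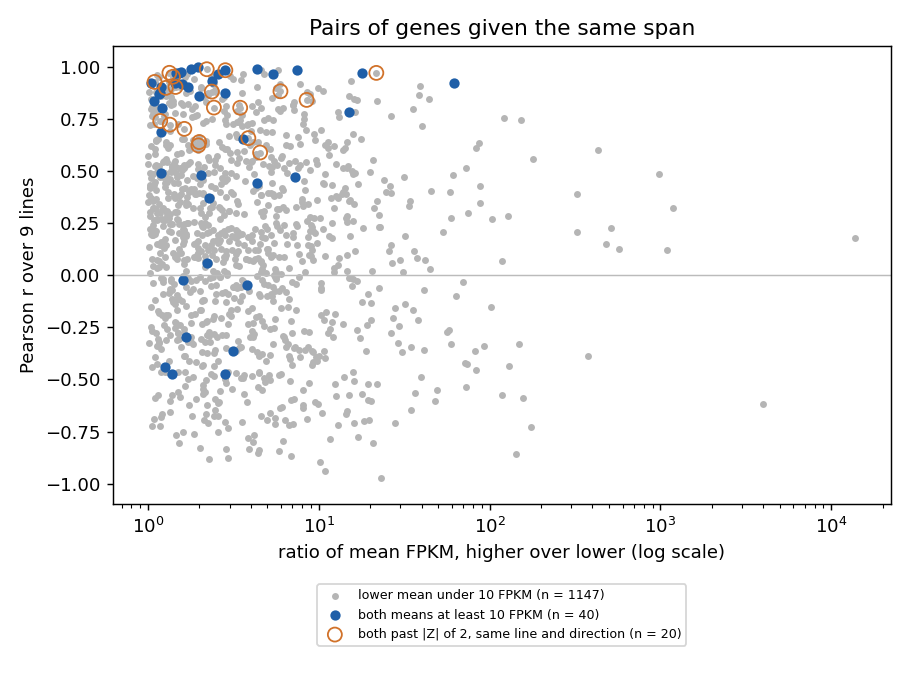
Each point is 1 pair of genes in a shared span, by the ratio of the mean FPKM of its genes (horizontal, log scale) and the Pearson r over 9 lines (vertical); filled blue points are the 40 pairs with both means of at least 10 FPKM, and orange rings the 20 pairs called in the same line and direction. Well-expressed pairs gather near the top, and the largest ratios (13817 and 4010) have r of 0.18 and -0.62.

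The identifier series separated the pairs further. Pairs of the first with the second series had a median r of 0.181 and a median ratio of 3.24, and pairs within the same series 0.223 and 2.53, against 0.0297 and 0.0533 for the r of neighbours of these kinds. With both means of at least 10 FPKM, the 31 pairs of the first with the second series had a median r of 0.874, against 0.117 for 789 neighbouring pairs. The 6 pairs of the same series had 0.511, against 0.218 for 812 neighbouring pairs. Genes of the third series correlated most: 0.553 in the 37 pairs with 1 such gene, and 0.785 in the 30 pairs with 2, with a median ratio of 1.5. These 30 pairs came from 7 spans, and 22 of them from the 3 spans with the most genes, where r ran from -0.84 to 0.97. The other 8 pairs had a median r of 0.812. Neighbouring spans that both held genes of the third series also had a high median r, 0.634 over 95 pairs, so this was not particular to shared spans.

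The spans with the most genes were made mainly of such third-series genes. On chromosome 10 (39834192 to 39839798) 5 genes, 4 of them of the third series, correlated at 0.921 to 0.985. All 5 were high in FAM94-41, M23, N0304-303-3 and R02-6268F, with Z-scores from 0.66 to 1.35, and low in the other 5 lines, from -1.16 to -0.18. The lines thus fell into 2 groups with no overlap in every gene of the span. Each of the 5 genes had equal lowest Z-scores in 2 to 4 of the low lines, taken below as a listed 0, and these tied values enter the correlations.

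The span with 6 genes, on chromosome 14 (39327168 to 39339511), split into opposed sets. XLOC_037636 (12.7 FPKM), XLOC_039046 (4.88 FPKM) and XLOC_039047 (2.38 FPKM) were low in R02-6268F (-1.5, -1.35 and -1.32) and high in FAM94-41 (1.05, 1.23 and 1.20) and R05-4256 (1.21, 1.24 and 1.51). XLOC_039043 (2.0 FPKM), XLOC_039044 (1.25 FPKM) and XLOC_039045 (0.982 FPKM) were high in R02-6268F (1.96, 1.14 and 1.23) and R08-1450 (1.55, 1.65 and 2.03). XLOC_039043 had its equal lowest Z-score in the other 7 lines. XLOC_039044 was also high in M23 (1.17) and had its equal lowest Z-score in 6 lines, and XLOC_039045 had it in 5. These tied values enter the correlations, including the negative ones between the opposed sets. Over the 15 pairs r ran from -0.90 to 0.97 with a median of -0.47, and XLOC_039045 was called increased in R08-1450.

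On chromosome 20 (33656929 to 33667051) the 5 genes of the span, 4 of them of the third series, correlated at 0.203 to 0.799. XLOC_052677, the most abundant (23.8 FPKM), was called reduced in R95-1705 (-2.22), where the others ranged from -1.31 to -0.02.

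**Figure D5:**
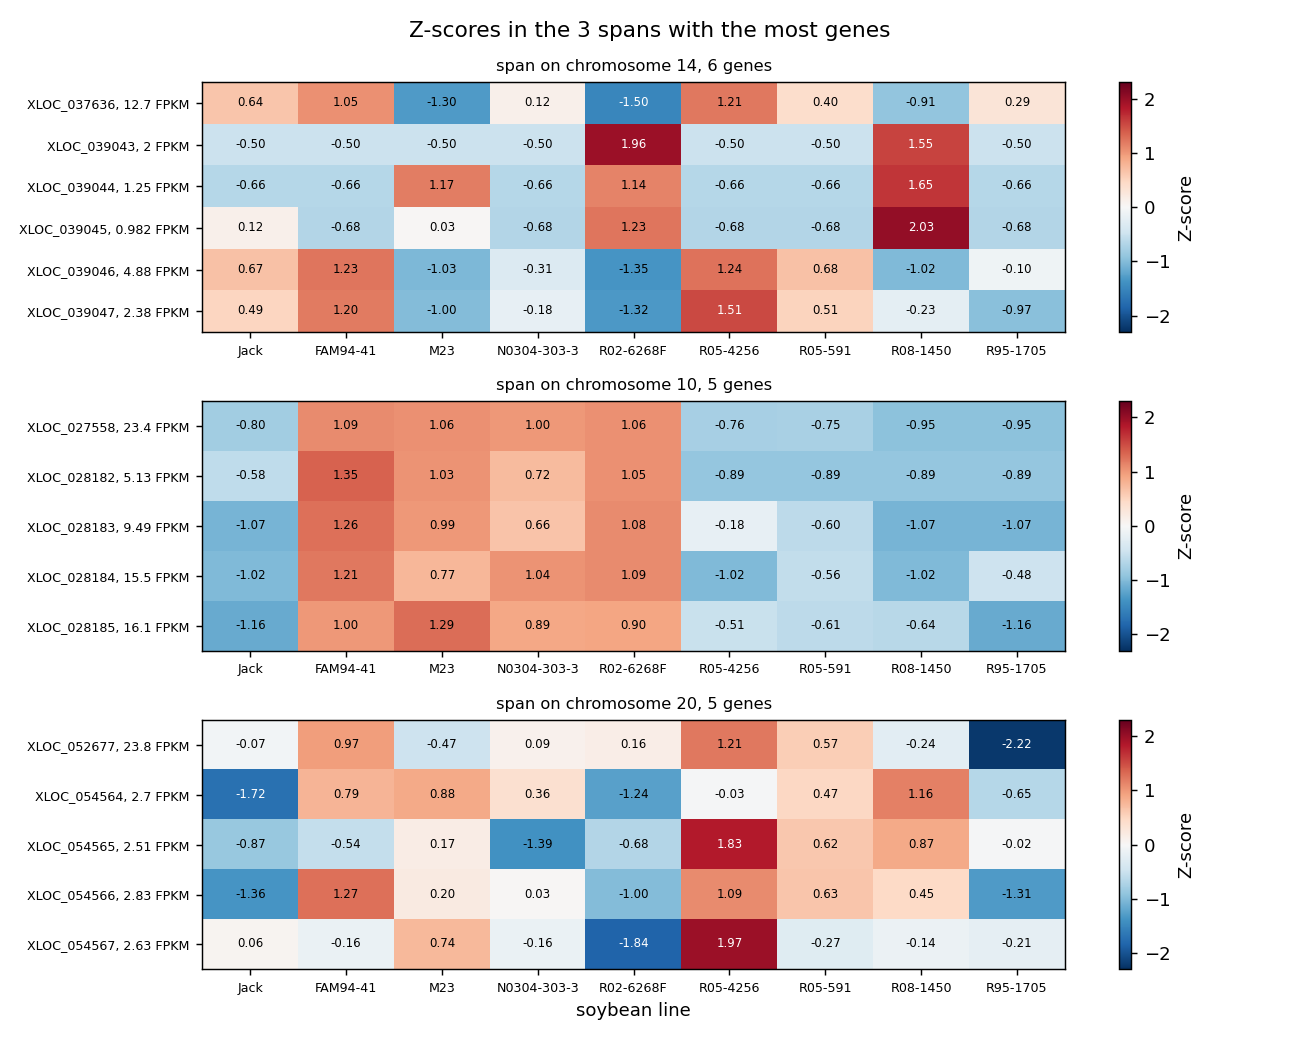
Z-scores (colour and number, no unit) of every gene in the 3 spans with the most genes, in rows labelled with the mean FPKM, over the 9 lines in columns. All rows of the span on chromosome 10 share 1 pattern (r of 0.921 to 0.985), and those of the span on chromosome 14 fall into 2 opposed sets (r from -0.90 to 0.97).

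In a span with a gene of the 2S albumin superfamily, 1 gene had tied lowest Z-scores in 3 lines. Glyma15g13750 (XLOC_039716, 126 FPKM), of the family of protease inhibitor, seed storage and lipid transfer proteins, shares chromosome 15, 10356670 to 10366158, with XLOC_041020 (137 FPKM) and XLOC_039715 (53.4 FPKM). XLOC_041020 was highest in Jack (1.66) and R05-591 (1.42) and had the equal lowest Z-score (-0.84) in FAM94-41, M23 and N0304-303-3. Glyma15g13750 was likewise highest in Jack (1.63) and R05-591 (1.39), but its lowest lines were R95-1705 (-1.18) and R08-1450 (-1.08). The correlations among the 3 genes were 0.83, 0.93 and 0.97.

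Such equal lowest Z-scores, within a tolerance of 1e-06, were taken as a listed FPKM of 0, which can also be a failed estimate. They occurred in 2 or more lines in 150 genes of shared spans (7.92%), against 745 genes of single-gene spans (2.34%). These 150 genes had a median mean of 0.865 FPKM, and 5 of them reached 10 FPKM. Of the 150, 69 were above 0 in 7 lines, 30 in 4 lines or fewer, and 1 (XLOC_027754) in 1 line, out of 47 such genes in the table. In 183 pairs 1 gene was of this kind, with a median r of 0.177, close to the 0.200 of the 980 pairs with no such gene. The 24 pairs, from 13 spans, in which both genes were of this kind had a median r of 0.910, and 22 of them shared at least 1 line at 0, though in 0 pairs were the lines identical. Equal values at 0 enter that r directly.

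Genes in shared spans passed the cutoff somewhat less often than the table as a whole. Of all genes tested, 23.8% had an absolute Z-score of at least 2 in some line, 13.0% increased and 10.8% reduced. In shared spans 379 of 1895 genes did (20.0%), 210 increased (11.1%) and 169 reduced (8.92%). By line, R08-1450 had 145 of these calls (7.65% of the genes, against 9.94% of all genes), Jack 61 (3.22% against 4.38%) and R95-1705 44 (2.32% against 1.94%). R05-4256 had 35, which was 1.85% against 0.930%, and M23 had 24, which was 1.27% against 0.947%. N0304-303-3 had 26 (1.37% against 1.60%), R05-591 20 (1.06% against 1.93%), FAM94-41 14 (0.739% against 1.33%) and R02-6268F 10 (0.528% against 0.793%). R05-4256, M23 and R95-1705 thus had a higher share in shared spans and the other lines a lower one. Between libraries without replicates these shares are descriptions. With a mean under 1 FPKM, 21.2% of the genes in shared spans were called in some line, against 25.6% in single-gene spans. From 1 to 10 FPKM it was 18.9% against 24.0%. From 10 FPKM the shares were nearly equal, 22.3% against 22.7%.

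Both genes of a pair passed the cutoff in 50 of the 1187 pairs (4.21%), against 5.95% of neighbouring pairs. In 20 pairs (1.68%) they did so in the same line and the same direction, against 1.24% of neighbouring pairs, where 383 did. In 2 pairs (0.168%) the same line was called in opposite directions, against 0.607% of neighbours, and in 28 pairs the lines differed. Thus over all pairs the share of joint calls in the same direction was little above that of neighbours, and opposite calls were few. Pairs of the first with the second identifier series had 1.75%, against 0.846% for neighbours of this kind. Pairs within the same series had 1.48% against 1.36%. With 1 gene of the third series the share was 0.00% against 3.68%, and with both genes 3.33% against 17.9%. The share over all pairs was below that of the closest neighbours, which was 2.53% at less than 500 bp and 1.79% from 500 to 1000 bp. With both means of at least 10 FPKM it was 2.50%, from 1 pair, against 1.97% for neighbours, from 32 pairs. Adjoining genes of that level had 3.77%, from 4 pairs. R08-1450 held 11 of the 20 pairs, 8 of them increased, R95-1705 held 3, M23 and R02-6268F 2 each, and Jack and N0304-303-3 1 each. Neighbouring pairs were also called together mostly in R08-1450, with 227 in the same and 132 in opposite directions. In the line in which a gene was called, its partner had a median Z-score of 0.46 in the direction of the call, against 0.11 for a neighbour of a called gene. The partner had the same sign in 65.3% of 458 cases, against 53.0%.

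The count of 20 depends on each library. With 1 line left out and the Z-scores recomputed over the other 8, it was 12 without Jack or FAM94-41, 11 without M23, R05-4256 or R05-591, 10 without N0304-303-3, 13 without R02-6268F, 15 without R08-1450 and 26 without R95-1705. Neighbouring pairs called together numbered from 185 without R08-1450 to 405 without R95-1705, and the share was above that of neighbours in each of these settings.

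Among the jointly called pairs, the Bowman-Birk span above had the highest lower mean. XLOC_023119 and XLOC_023118 on chromosome 9 (30524051 to 30527919, 10.3 and 7.39 FPKM) were also reduced in R08-1450, with -2.39 and -2.58, and the lowest of their other Z-scores were -0.52 and -0.18. XLOC_023969 and XLOC_022600 on chromosome 9 (2004698 to 2014461, 6.47 and 4.82 FPKM) were increased in R08-1450 (2.14 and 2.02), as were XLOC_039721 and XLOC_041025 on chromosome 15 (10460096 to 10469873, 3.31 and 2.60 FPKM), with 2.12 and 2.40. In R02-6268F, XLOC_020599 and XLOC_022310 on chromosome 8 (44934699 to 44939955, 14.0 and 3.09 FPKM) were reduced (-2.02 and -2.23). XLOC_021490 and XLOC_019648 on chromosome 8 (12330333 to 12332102, 6.66 and 3.02 FPKM) were increased in R02-6268F (2.64 and 2.67), and no other line exceeded 0.06 in either gene. Their r of 0.99 rested on R02-6268F, since the other 8 lines gave -0.22. XLOC_021490 was above a listed 0 only in R02-6268F and R05-591, and XLOC_019648 only in Jack, R02-6268F and R05-4256. The means of both genes thus rest mainly on the line in which they were called. XLOC_008021, called together with XLOC_008022 in R08-1450, was likewise above 0 only in N0304-303-3 and R08-1450.

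A joint call raises r by itself. Over the 9 lines the 20 pairs had a median r of 0.861, and over the 8 lines without the call 0.407, positive in 16 of them and from -0.43 to 0.94. The 383 neighbouring pairs called together had 0.806 and, without the line of the call, 0.248 in the 363 of them for which it could be computed.

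Joint calls included some named genes. Glyma01g42220, of the MATE family of efflux transporters, and Glyma01g42211, with a double Clp-N motif, were both reduced in R08-1450 (-2.44 and -2.04) on chromosome 1 (53514548 to 53520383), at 2.63 and 1.61 FPKM. Their correlation without R08-1450 was 0.0012. XLOC_011148 and XLOC_012332, both given Glyma05g25711 on chromosome 5 (31742222 to 31744447, 7.24 and 0.854 FPKM), were increased in R08-1450 (2.16 and 2.46).

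Opposite calls occurred in Jack and in R08-1450. On chromosome 7 (369094 to 379652), XLOC_017569 (56.7 FPKM) was increased in Jack (2.02) and XLOC_016181 (2.60 FPKM) was reduced there (-2.0), with r = -0.52. On chromosome 15 (8957075 to 8965198), XLOC_040963 (20.1 FPKM) was increased in R08-1450 (2.08) and XLOC_039630 (1.09 FPKM) was reduced (-2.04), with r = -0.70. In both spans the gene of higher level was the increased one.

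Gene models were matched for few of the genes. Of the 8037 genes past the cutoff, the copy of the study's list used here held 1998, so most called genes of shared spans have no name here. Among the pairs called together, those on chromosomes 1, 3 and 5 had entries. Of those on later chromosomes, only the Bowman-Birk span had an entry. A missing name is therefore not read as a trait of a span. With the lists of abundant and most variable genes, 91 genes of shared spans had an entry, 88 of them with a gene model, in 80 spans, and in 8 spans every gene was matched. Since these lists hold mainly called genes, 83 of the 91 were called (48 increased and 35 reduced), which says nothing of the set. Called shares over all genes with each word were not computed, so the counts and directions below only name genes. By words in the annotation, storage proteins had 2 genes (0 called), proteases and inhibitors 3 (1 reduced, the Bowman-Birk gene), late embryogenesis 1 (0 called), lipid enzymes 1 (increased) and oil bodies 0. Glyma15g13750 is counted among both the storage proteins and the inhibitors, since its superfamily name holds words of both. The words for transcription factors took 5 genes (1 increased and 4 reduced). They include Glyma01g44290, a Target of Myb protein that is no transcription factor, and they miss Glyma03g26437, an ethylene-responsive element binding factor, and Glyma03g32747, a phytochrome interacting factor. The words for ribosome and translation took 4 genes (all increased), among them the tumor protein gene Glyma09g04950, which is no ribosomal protein. The words kinase and phosphatase took 7 genes (3 increased and 2 reduced), and the uncalled ones were the lectin genes, whose annotation names a lectin kinase family.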

How the data were processed

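Reads of 100 bp from both fragment ends were cut to 90 bp and placed on the Williams 82 sequence by the authors, using Bowtie 0.12.8 within TopHat 1.4.0. Reads with more than 2 mismatches or more than 1 place were dropped. The FPKM come from Cufflinks, Cuffmerge and Cuffdiff 2.1.1 as run by the authors, who kept a gene if its mean reached 0.5 FPKM or if it was expressed in all 9 lines. The deposited table holds the mean FPKM of each gene and, per line, the Z-score that the authors computed from log2-transformed FPKM, a score without unit. Of its value columns 0 were left unused.

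Pearson correlations of the 9 Z-scores and ratios of the mean FPKM were computed for every pair within a span, for consecutive non-overlapping single-gene spans and for adjoining genes, with numpy 2.4.6 and pandas 2.3.3, after the scripts were tested on simulated data. Gene models were taken by matching the span with the Z-scores (within 1e-04), or the mean FPKM with the chromosome, to the study's supplementary lists, from which names only were used. Of the longest list, which covers the 8037 genes past the cutoff, 1998 genes were used here. Classes of distance between neighbours were chosen after seeing the data. Named pairs were the most abundant spans, the best expressed joint calls, extremes of correlation and ratio, the largest spans and spans of the 100 most abundant genes. Named genes called together in R08-1450 that fall outside this rule were added after their values were seen. The members and lists were chosen with earlier results of these data known. Alternatives tried were other cutoffs, FPKM filters, added constants, line medians subtracted, Spearman correlation, 1 value per span, pairs of genes only, neighbours within 5 kb or at the flanks, leaving out each line, leaving out genes at 0 and leaving out the third series.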

Additional observations from a re-analysis of the deposited data

How the results depend on the processing

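The median correlation was higher in shared spans than in neighbours in 15 of 15 settings, and the share of pairs called together in 14 of 14. Neighbours less than 1000 bp apart were not among these settings, and their share of joint calls was higher than that of shared spans (2.53% under 500 bp and 1.79% from 500 to 1000 bp, against 1.68%). Over all settings of the correlation within spans the median ran from 0.181 to 0.871. The restriction to means of at least 10 FPKM gave 0.871, and the next highest value was 0.236, with means of at least 1 FPKM. No interval is attached to these medians, since pairs share genes and all rest on the same 9 libraries. The median ratio within spans was 2.07 with 1 FPKM added to both means, 2.28 and 1.98 with both means of at least 1 and 10 FPKM, 3.49 in spans of 2 genes only and 3.39 with 1 median per span. Pairs called in the same line and direction numbered 166 at a cutoff of 1.5 (14%, against 10.4% of neighbours) and 7 at 2.2 (0.59% against 0.443%). With both means of at least 1 and 10 FPKM they numbered 11 (1.73% against 1.28%) and 1 (2.5% against 1.97%). With 1 line left out they ranged from 10 to 26. Genes of shared spans past the cutoff numbered 1574 of 1895 at 1.5 (83.1%) and 153 at 2.2 (8.07%). The shares over all genes at these 2 cutoffs were not computed, so the counts say nothing particular of the set. With a mean of at least 10 FPKM they numbered 61 of 273 (22.3%), against 22.7% of genes in single-gene spans. Leaving out genes at 0, leaving out the third series and leaving out lines other than Jack and R08-1450 were chosen after seeing the data. No paired analysis was possible because each line has 1 library and no replicate number is shared by the labels. The table holds no read counts, so whether counting error has a part in the low correlation under 5 FPKM was not tested.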

Other observations

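Length and number of genes divided the shared spans as well. The 42 pairs in spans under 2000 bp had a median r of 0.428, the 276 pairs from 2000 to 5000 bp 0.252, the 496 pairs from 5000 to 10000 bp 0.173 and the 373 pairs of longer spans 0.208. The short spans also held the widest mixture, with 6 of 42 pairs above 0.9 and 7 below -0.5. Spans of 2 genes had a median r of 0.192 (765 pairs), spans of 3 genes 0.172 (273 pairs) and spans of 4 to 6 genes 0.351 (149 pairs, which share genes and include the third-series genes of the largest spans).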
